A study of Mus musculus with 8 samples.

Results

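Steep timing transition regions are short stretches of chromosome in which replication passes from early to late S phase. They were taken from 4 replication timing profiles of mouse embryonic stem cells. An autosomal window of 50 kb was a member where the mean of the 4 profiles lay between -2 and 2 score units and where the windows 200 kb before and 200 kb after it differed by at least 3 units in that mean. Neighbouring member windows that ran in the same direction were joined. This gave 1334 regions from 5403 windows, which were 11.24% of the 48068 autosomal windows with a score. A second set of 695 moderate transition regions, joined from windows with a difference of at least 1.5 units and holding no steep window, is used beside them.

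Replication timing was measured by Repli-seq, in which DNA made during a 2 h pulse of the thymidine analogue BrdU is recovered from cells sorted by DNA content into early and late S phase. The dTAG group, 2 profiles called dTAG 1 and dTAG 2, was collected 2 days after treatment with dTAG, a small molecule that sends a tagged protein, here YY1, to the proteasome. The control group, control 1 and control 2, carries the description Control, and the labels name no strain, clone, vehicle or allele for either group and refer to an earlier publication for culture and treatment. Each profile rests on 1 early and 1 late sample, so 8 samples stand behind the 4 profiles. YY1 protein was not measured in these files, and the labels do not say whether profiles came from separate cultures, so the p-values below measure only the spread between these samples.

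Mammalian chromosomes replicate in domains. Clusters of origins fire together in early domains, other clusters fire late, and the sequence between an early and a late domain, the timing transition region, is crossed by forks that leave the early domain or by origins that fire one after another. The immunoglobulin heavy chain locus of mouse cells is the textbook example of such a region. YY1 is a zinc finger protein that binds active promoters and enhancers and is known for holding them in loops, which is the question behind the comparison: whether edges between timing domains keep their place and their slope when YY1 is removed.

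The deposited scores were smoothed by the authors, and their direction is not stated. High scores were read here as early replication, and every early or late side below rests on that reading. An edge is the position at which a profile crosses the level midway between the mean scores of the 200 kb on either side of the region. A shift is the mean dTAG edge minus the mean control edge in kb, turned so that a positive shift lies toward the late side and makes the early domain longer after dTAG. Counts of reads are not part of the scores and the depth is unknown, and smoothing over a span named as 400 kb limits how sharp an edge can be.

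Promoter sequence is shown for the 4 gene starts nearest to the mean edge among the 12 starts inside the 10 regions named for their edge shift, as examples of the genes on either side of an edge. Each is 300 bases from RefSeq on GRCm38.p6, 250 before to 50 after the gene's start, printed 5′ to 3′ on the gene's strand. Capitals mark a match to the YY1 letters GCCATNTT on either strand, and the sequences are Clca4b at chr3:144932480-144932779 on the minus strand, Intu at chr3:40540517-40540816, Olfr290 at chr7:84915531-84915830 and Mical2 at chr7:112225586-112225885, these 3 on the plus strand.
Clca4b: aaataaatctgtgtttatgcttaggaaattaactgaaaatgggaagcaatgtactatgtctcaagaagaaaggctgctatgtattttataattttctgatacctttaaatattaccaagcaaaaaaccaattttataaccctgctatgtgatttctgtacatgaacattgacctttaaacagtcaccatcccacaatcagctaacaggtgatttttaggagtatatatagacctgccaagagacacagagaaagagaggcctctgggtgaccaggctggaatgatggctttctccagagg
Intu: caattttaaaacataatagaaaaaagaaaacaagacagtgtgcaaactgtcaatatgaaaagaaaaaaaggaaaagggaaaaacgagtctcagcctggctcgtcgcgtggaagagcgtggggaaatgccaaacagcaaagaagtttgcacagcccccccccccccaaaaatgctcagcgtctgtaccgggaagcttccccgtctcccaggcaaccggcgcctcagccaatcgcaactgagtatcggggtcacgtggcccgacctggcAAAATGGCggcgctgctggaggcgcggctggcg
Olfr290: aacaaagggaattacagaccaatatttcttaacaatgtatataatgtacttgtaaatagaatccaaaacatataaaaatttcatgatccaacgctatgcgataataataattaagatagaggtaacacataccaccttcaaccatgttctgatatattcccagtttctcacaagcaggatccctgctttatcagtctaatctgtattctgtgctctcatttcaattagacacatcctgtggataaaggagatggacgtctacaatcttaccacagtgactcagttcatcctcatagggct
Mical2: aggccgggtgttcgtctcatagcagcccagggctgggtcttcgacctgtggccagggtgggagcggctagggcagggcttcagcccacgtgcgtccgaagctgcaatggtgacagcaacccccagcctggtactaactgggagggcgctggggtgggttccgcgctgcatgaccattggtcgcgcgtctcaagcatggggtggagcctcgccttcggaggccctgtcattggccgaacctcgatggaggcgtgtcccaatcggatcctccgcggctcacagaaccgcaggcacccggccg
Clca4b, of a family of calcium-activated chloride channel regulators, was the 1 start of the 12 that lay between the mean dTAG edge and the mean control edge, and its promoter has 37% G and C and no CpG. The start of Intu, a planar cell polarity gene needed for cilia, lay at -0.142 kb from the mean dTAG edge and -53.3 kb from the mean control edge, with the late side positive. Its promoter has 53.7% G and C, 19 CpG and 1 match to the YY1 letters, a match that 6.65% of the 16456 autosomal promoters of this length hold. Olfr290, an olfactory receptor gene, has 35.3% G and C and 3 CpG, and Mical2, which encodes an actin-oxidising monooxygenase, has 66.7% and 24 CpG. A match is a description of letters and not a measured site.

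The regions were spread over all 19 autosomes and joined domains far apart on the timing scale. In all, 664 rose and 670 fell along the chromosome coordinate, and together they covered 270.15 Mb. The shortest was 50 kb, the median 200 kb and the longest 500 kb, with 125 regions of 1 window and 608 of 5 or more. The flank on the early side had a median score of 2.53 and that on the late side -2.76, and the median drop between them was 4.28 units, with a range of 1.71 to 7.34. The regions were chosen by these scores and their differences, so the values are given as a description. Not every region ran from a score above 0 to one below it: the 5th percentile of the early flank was -0.38, so some lay within the late part of the scale.

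The windows nearest to the thresholds show that the limits cut through a continuum. Just inside, the difference was 3.00115, 3.00128 and 3.00139 units, and just outside it was 2.99969, 2.99965 and 2.99905. At the upper score limit the nearest windows had means of 1.9993, 1.99857 and 1.99431 inside and 2.00025, 2.00079 and 2.00086 outside. At the lower limit they had -1.99853, -1.99822 and -1.99772 inside and -2.00137, -2.0023 and -2.00298 outside.

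Steep regions were counted in similar number after dTAG and in the control. The rule gave 1334 regions on the mean of the dTAG profiles and 1347 on that of the controls. The single profiles gave 1216 in dTAG 1 and 1490 in dTAG 2, against 1244 in control 1 and 1449 in control 2. The counts followed the replicate number more than the treatment, with more regions in both profiles numbered 2. Of the steep windows, 4681 were found on both means, which is 87.02% of those of dTAG and 85.97% of those of the control.

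Per chromosome, steep windows were most frequent on chromosome 18, at 13.8% of its windows, and least on chromosome 11, at 9.25%. Regions were densest on chromosome 13, with 6.82 for each 10 Mb, and sparsest on chromosome 11, with 4.46.

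**Figure D1:**
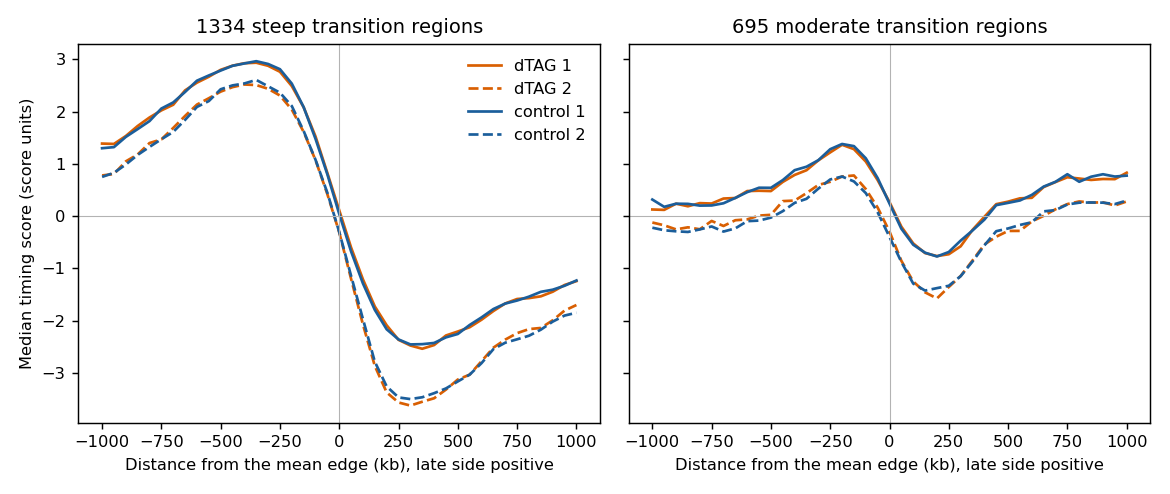
Median timing score of each profile (score units) against the distance from the mean edge in kb, with the late side positive, for the steep regions on the left and the moderate regions on the right; orange lines are dTAG and blue lines control, solid for replicate 1 and dashed for replicate 2. At 200 kb on the late side the steep regions stood at -2.09 and -3.38 in dTAG 1 and 2 and at -2.17 and -3.26 in control 1 and 2, so lines of the same replicate number lie closest.

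Aligned on their mean edges, the steep regions traced almost the same path with and without dTAG. At 200 kb on the early side the median score was 2.49 in dTAG 1 and 2.04 in dTAG 2, against 2.53 in control 1 and 2.11 in control 2. At the mean edge itself it was 0.11 and -0.31 in the dTAG profiles, against 0.04 and -0.31 in the controls. The gap between replicate numbers was visible on both sides of the edge and was wider on the late side. The medians at 1000 kb were 1.39 and 0.78 after dTAG, against 1.30 and 0.75 in the control, on the early side, so scores fell back toward the middle of the scale beyond the flank.

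The slope of the regions did not separate the groups. Fitted by least squares over a region and 100 kb on each side, its median over the 1334 regions was 10.985 score units per Mb in dTAG 1 and 12.9 in dTAG 2, against 11.3 in control 1 and 12.7 in control 2. Both profiles numbered 2 were steeper than both numbered 1. The median change, dTAG minus control, was -0.026 units per Mb, with -0.314 within replicate 1 and 0.293 within replicate 2, and 48.6% of regions were steeper after dTAG. An exact permutation test over the 4 profiles gave p = 1 (2-sided), where the smallest p that 2 against 2 profiles allow is 0.3333. Splitting the profiles by replicate number gave a median difference of 1.69 units per Mb and the crossed split, dTAG 1 and control 2 against dTAG 2 and control 1, gave 0.319. The sign turned with the profiles used: the median change was 1.05 without dTAG 1 and 0.726 without control 2, but -0.985 without dTAG 2 and -0.697 without control 1. In the moderate regions the median slopes were 6.42 and 7.58 after dTAG, against 6.59 and 7.42 in the control.

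By window, limma called a changed slope in 0 of the 5403 steep windows and in 0 of all 47916 autosomal windows tested, at an adjusted p of 0.05. An unadjusted p under 0.05 was found in 91 steep windows, 1.68%, against 2.04% of all windows tested. Both dTAG slopes lay beyond both control slopes in 218 steep regions, 113 steeper and 105 flatter after dTAG. Over steep and moderate regions together the same held for 10.8% in the steeper and 9.81% in the flatter direction.

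The largest slope changes with one sign throughout were large beside the control slopes in some regions. The region at Cdh19, a cadherin gene on chromosome 1 from 110900001 to 110950000, had 13.8 and 17.6 score units per Mb after dTAG, against 9.1 and 10.9 in the control, a change of 5.71. As the rule for naming required, both dTAG values were higher than both control values. The region between Rora, a nuclear receptor gene, and Vps13c on chromosome 9 had 12.4 and 13.8 units per Mb after dTAG, against 8.07 and 8.73, and that at Cep44, a centrosomal protein gene on chromosome 8, had 6.54 and 10.8, against 2.77 and 5.79. In the flatter direction, the region at the vomeronasal receptor genes Vmn2r65 and Vmn2r66 on chromosome 7 had 6.83 and 5.202 units per Mb after dTAG, against 10.8 and 12.1 in the control, a change of -5.45. Its slope in both dTAG profiles was below that in both controls, as were those at Ap1s3, an adaptor complex gene on chromosome 1, with 9.10 and 10.3 against 12.6 and 15.0, and between Olfm4 and Pcdh17 on chromosome 14, with 10.5 and 11.1 against 14.3 and 15.0. These 6 regions were taken for the size of their change, and no window in them passed the limma test.

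**Figure D2:**
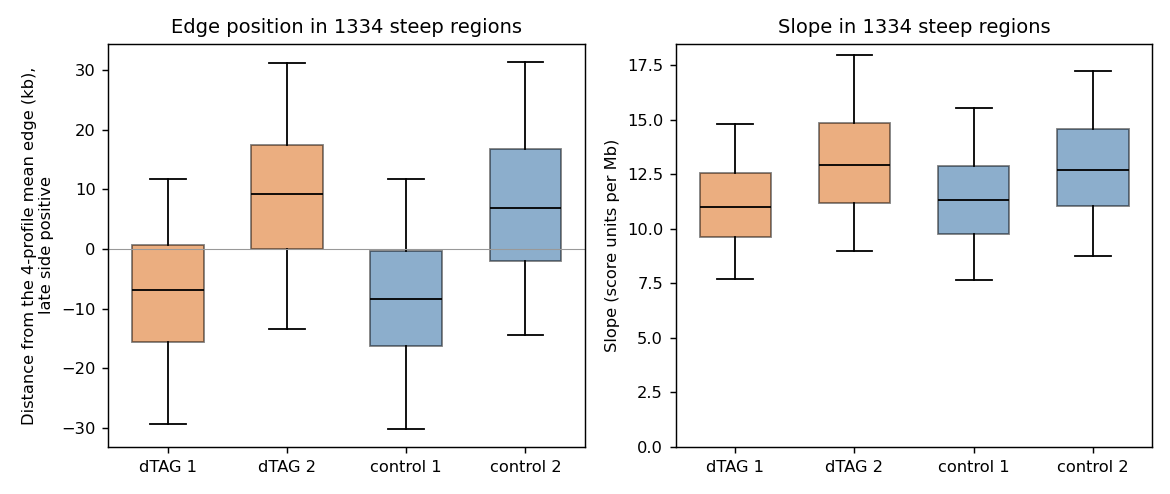
Edge position (left, kb from the mean edge of the 4 profiles, late side positive) and slope (right, score units per Mb) of the 1334 steep regions in each profile; boxes span the quartiles with the median as a line and whiskers the 5th to 95th percentile, orange for dTAG and blue for control. Median edges lay at -6.91 and 9.13 kb in dTAG 1 and 2 and at -8.33 and 6.84 kb in control 1 and 2, so the boxes pair by replicate number.

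Most edges stayed within 20 kb of their control position after dTAG. Measured from the mean edge of all 4 profiles, the median edge lay at -6.91 kb in dTAG 1 and 9.13 kb in dTAG 2, against -8.33 kb in control 1 and 6.84 kb in control 2. Both profiles numbered 2 had their edges further toward the late side than both numbered 1. The median shift after dTAG was 1.71 kb toward the late side, with 1.14 kb within replicate 1 and 2.33 kb within replicate 2. Its 5th and 95th percentiles were -22.2 and 23.1 kb, 85.5% of regions shifted by less than 20 kb, and 55.2% shifted toward the late side, with 54.0% in replicate 1 and 55.6% in replicate 2. The positions of the deposited scores are 5 kb apart, so the median shift is smaller than the spacing of the data.

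The size of the shifts was below the distance between replicates, which was in large part an offset shared by both groups. With the late side positive, profile 1 minus profile 2 had a median of -15.5 kb in the controls and -15.7 kb after dTAG. Regardless of direction, shifts had a median of 8.26 kb, or 9.11 kb within replicate 1 and 11.1 kb within replicate 2, while the edges of the 2 dTAG profiles lay 18.7 kb apart in the median and those of the 2 controls 18.7 kb. An exact permutation test of the median shift over the 4 profiles gave p = 0.6667 (2-sided), with 0.3333 the smallest possible. The split by replicate number moved the median edge by 16.2 kb and the crossed split by 0.316 kb. The direction rested on having both replicate numbers in each group: the median was -6.38 kb without dTAG 2 and -5.83 kb without control 1, and 9.85 kb without dTAG 1 and 9.08 kb without control 2.

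limma called a shifted edge in 0 of the 1334 steep regions and 0 of all 2029 regions fitted, with adjusted p of 0.9987 or above and a median SE of 15.1 kb in the steep regions. An unadjusted p under 0.05 was found in 14 steep regions, 1.05%, against 2.27% of all regions fitted. With the replicate number as a block it also called 0, and the lowest adjusted p in the steep regions was 0.341. In that fit 108 steep regions, 8.1%, had an unadjusted p under 0.05, against 9.81% of all regions fitted.

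In 474 steep regions the edge lay further toward the late side after dTAG in both replicate numbers, in 346 further toward the early side in both, and in 514 the replicate numbers went opposite ways. Edges of both dTAG profiles lay at least 10 kb beyond both control edges in 95 steep regions, which is 7.12%. Of these, 54 lay toward the late side and 41 toward the early side, that is 4.05% and 3.07%, against 4.39% and 4.19% over all 2029 steep and moderate regions. The same count was 543 for the split by replicate number and 24 for the crossed split. With no minimum distance it was 316, of which 189 toward the late side, 14.2% and 9.52% in the 2 directions, against 15.1% and 11.2% over all regions fitted. At 20 kb it was 18, with 7 toward the late side (0.525%) and 11 toward the early side (0.825%), against 1.18% and 1.58%. Leaving out 1 profile asks less of a region, and the count at 10 kb was then 433 without dTAG 1, 306 without dTAG 2, 367 without control 1 and 375 without control 2.

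**Figure D3:**
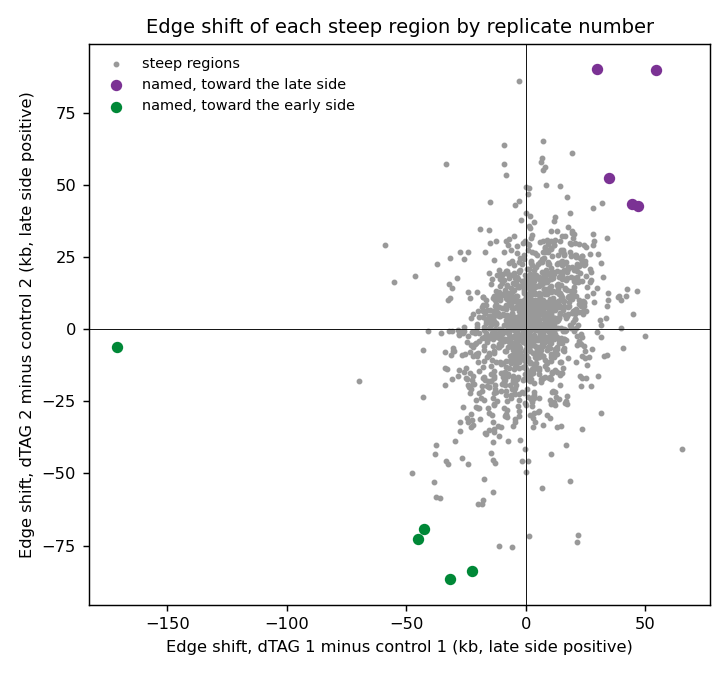
Edge shift in kb, dTAG minus control with the late side positive, within replicate 1 (horizontal axis) and within replicate 2 (vertical axis); grey points are the steep regions, and coloured points the 5 named for the largest shift toward each side. The points spread over both axes, with 474 regions toward the late side and 346 toward the early side in both replicate numbers.

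Moderate regions gave a median shift of 0.791 kb, with 0.521 and 2.31 kb within the replicate numbers, and a median size of 9.61 kb, and 75.8% of them shifted by less than 20 kb. Among the steep regions themselves the size of the shift was less the steeper the region, at 10.3 kb in the least steep 445, 7.61 kb in the middle 444 and 7.37 kb in the steepest 445. Rising and falling regions had median shifts of 1.401 and 1.81 kb. Regions with a mean score above 0 had a median shift of 2.63 kb (1.57 and 3.63 kb within the replicate numbers), and those below 0 had 0.563 kb (0.798 and 0.233 kb). No test of these differences was run.

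The direction varied between chromosomes. On chromosome 8, 71.2% of the 66 regions shifted toward the late side, with a median of 4.10 kb and 2.30 and 8.14 kb within the replicate numbers. Chromosome 11 had a median of 4.64 kb (5.51 and 4.30 kb), and chromosome 7 had 4.19 kb (1.92 and 4.42 kb). On chromosome 5, by contrast, 40% of 75 regions shifted toward the late side, with a median of -1.86 kb (-0.363 and -3.40 kb). In all, 15 of 19 autosomes had a positive median. The median was positive within both replicate numbers on 11, among them chromosome 1, where the pooled median was -0.194 kb, and chromosome 5 was the 1 with a negative median in both.

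The region that moved furthest toward the late side lay at Icos, the gene of a T cell co-stimulatory receptor, on chromosome 1 from 61000001 to 61250000. Its edges were at 61.153 and 61.173 Mb after dTAG, against 61.099 and 61.083 Mb in the control. Regions named for their edge shift were chosen with all 4 differences of one sign, so their groups do not overlap by that rule. The shift here was 72.1 kb, 54.4 and 89.9 kb within the replicate numbers. Its SE was 14.3 kb and its adjusted p 0.9987 in limma. The late flank scored -2.11 and -3.80 after dTAG, against -1.57 and -1.31 in the control, and with 1 level common to all profiles in place of the midpoint between flanks the shift was 37.6 kb, and at score 0 it was 36.1 kb.

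On chromosome 12 from 42850001 to 43100000, a region with no protein-coding gene lies between Immp2l, for a subunit of a mitochondrial inner membrane protease, and Dnajb9, for a chaperone of the endoplasmic reticulum. Its edges were at 42.955 and 42.946 Mb after dTAG, against 43.001 and 42.989 Mb in the control. This region rises along the coordinate, so the lower dTAG positions lie toward its late side, and the 44.6 kb shift was alike in both replicate numbers, 46.8 and 42.5 kb. The region on chromosome 3 from 62950001 to 63100000, between Mme, which encodes the peptidase neprilysin, and the orphan receptor gene Gpr149, had edges at 63.024 and 63.006 Mb after dTAG, against 63.069 and 63.049 Mb, a shift of 43.9 kb (44.5 and 43.3 kb). The size of this shift depended on how the edge was set, with 120.9 kb at a level common to all profiles, 76.0 kb at score 0 and 77.5 kb with flanks of 400 kb.

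The other 2 regions named in this direction overlap several genes. On chromosome 17 from 42350001 to 42700000, at Ptchd4, Opn5, an ultraviolet-sensitive opsin gene, and Adgrf2, edges lay at 42.499 and 42.483 Mb after dTAG, against 42.534 and 42.536 Mb in the control, a shift of 43.6 kb (34.9 and 52.2 kb). On chromosome 8 from 82700001 to 83000000, at Rnf150 and Zfp330, edges lay at 82.861 and 82.816 Mb after dTAG, against 82.891 and 82.906 Mb, a shift of 59.8 kb (29.6 and 89.9 kb). Both dTAG edges were beyond both control edges in each region, as the rule for naming required. At Rnf150 the slope was also higher, 9.36 and 10.7 units per Mb after dTAG against 6.996 and 5.32, and with flanks of 400 kb in place of 200 kb the shift turned to -35.7 kb, while without dTAG 2 it was 37.1 kb.

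Toward the early side, which shortens the early domain, the largest shift lay at Dkk1, the gene of a secreted Wnt antagonist, on chromosome 19 from 30400001 to 30550000. Its edges were at 30.401 and 30.478 Mb after dTAG, against 30.572 and 30.485 Mb in the control. Replicate 1 carried the shift of -88.7 kb, with -171.1 kb, against -6.196 kb within replicate 2, and the SE was 37.7 kb. With a level common to all profiles the value was 2.41 kb and at score 0 it was -3.78 kb, so its direction was not stable. It was -44.9 kb without control 1 and -49.9 kb without dTAG 1.

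**Figure D4:**
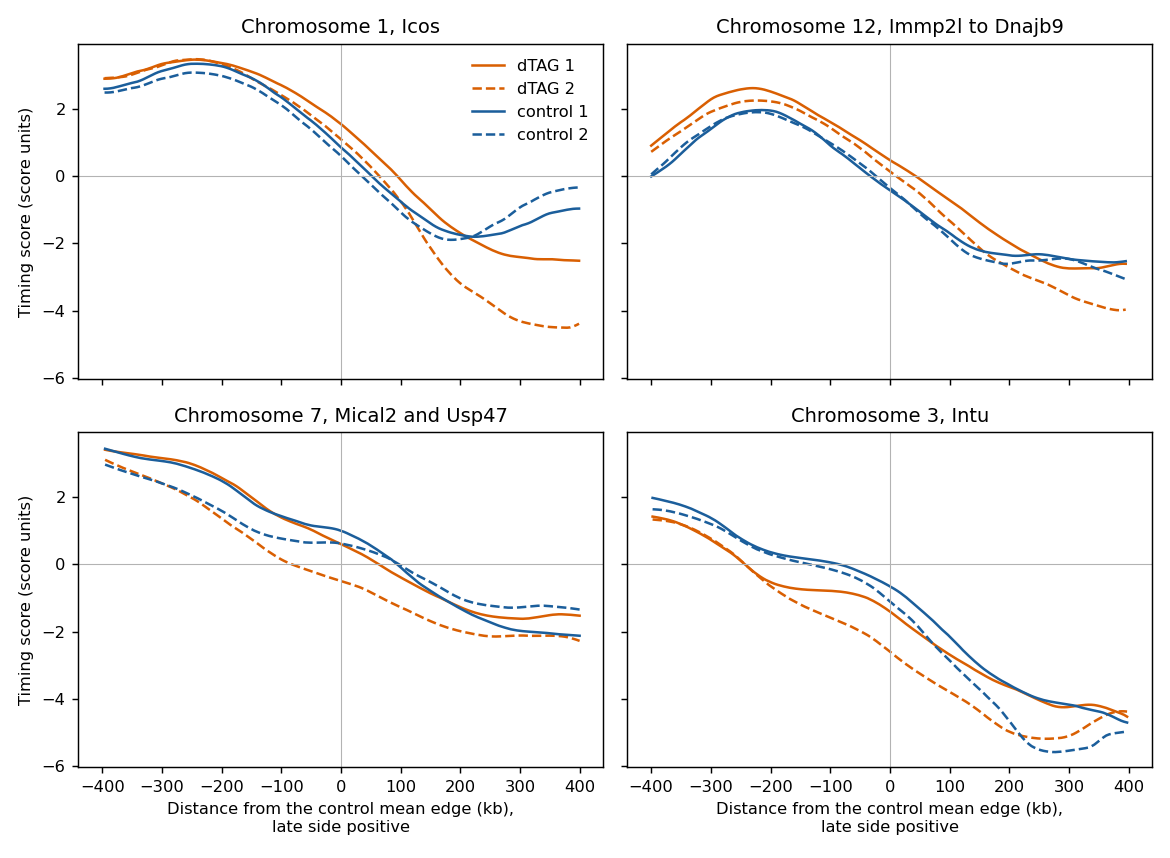
Timing score (score units) of dTAG 1 and 2 (orange) and control 1 and 2 (blue), solid for replicate 1 and dashed for replicate 2, against the distance from the mean control edge in kb, with the late side positive, in 4 named regions. The dTAG lines cross toward the late side at Icos and between Immp2l and Dnajb9, with shifts of 72.1 and 44.6 kb, and toward the early side at Mical2 and Intu, with -59.0 and -53.2 kb.

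The other 4 regions named in the early direction kept their sign under every other edge level and flank tried, but not their size. On chromosome 7 from 112100001 to 112250000, at Mical2, the ubiquitin protease gene Usp47 and the Dickkopf family gene Dkk3, edges lay at 112.179 and 112.219 Mb after dTAG, against 112.134 and 112.146 Mb in the control, a shift of -59.0 kb (-45.2 and -72.8 kb). Mical2 starts within this region, on the early side of both mean edges. The shift ranged from -32.6 kb with flanks of 400 kb to -105.2 kb at score 0, with -94.4 kb at a common level, and was -39.0 kb without dTAG 2. On chromosome 3 from 40450001 to 40700000, at Intu, edges lay at 40.512 and 40.569 Mb after dTAG, against 40.490 and 40.485 Mb, a shift of -53.2 kb (-22.6 and -83.8 kb). Its region mean was -0.94 and -1.70 after dTAG, against -0.12 and -0.35 in the control, and the shift was -146.4 kb with a common level, -132.8 kb at score 0, -24.9 kb without dTAG 2 and -81.5 kb without dTAG 1.

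The region on chromosome 3 from 144750001 to 145100000 overlaps 7 genes, the longest of them the chloride channel regulator genes Clca3a2, Clca3a1 and Clca2. Edges lay at 144.886 and 144.917 Mb after dTAG, against 144.929 and 144.987 Mb in the control, a shift of -56.0 kb (-42.8 and -69.1 kb). Both dTAG edges lay short of both control edges, as the rule for naming required. The shift was -27.2 kb without control 2 and -84.7 kb without control 1. At the receptor genes Vmn2r65, Vmn2r66 and Olfr291 on chromosome 7 from 84850001 to 85000000, edges lay at 84.847 and 84.832 Mb after dTAG, against 84.878 and 84.918 Mb, a shift of -59.2 kb (-31.7 and -86.7 kb), which was -39.1 kb without control 2. Vomeronasal receptor genes and Clca genes lie in clusters of similar copies, where reads can be shared between members. Each of these 10 regions had an adjusted p of 0.9987 in limma, so none passed the test.

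The steepest regions shifted little. Among those that rise along the coordinate, the highest slope of the 4-profile mean was 23.6 score units per Mb on chromosome 14 from 19500001 to 19650000, at the predicted genes Gm2237, Gm2244 and Gm5458, followed by 19.1 at Gm3558, Gm38418 and Gm10338 on the same chromosome and 18.3 between Mrpl39, for a mitochondrial ribosomal protein, and Ncam2, for a neural adhesion protein, on chromosome 16. Among those that fall, it was 21.1 on chromosome 4 from 59950001 to 60100000, at Mup7, Mup4 and Mup6, which encode major urinary proteins, 19.2 between Zfp507 and Gm36722 on chromosome 7, and 18.6 at Syt1, the calcium sensor of synaptic vesicle release, on chromosome 10. The shifts of these 6 ranged from -7.94 kb at Gm2237 to 11.9 kb at Syt1. At Syt1 the edges lay at 108.777 and 108.789 Mb after dTAG, against 108.767 and 108.775 Mb. The groups did not overlap, as in 23.7% of steep regions with no minimum distance, but their nearest edges lay closer than the 5 kb spacing of positions. Mup genes and the Gm genes of chromosome 14 belong to families of near-identical copies, at which positions of reads are uncertain.

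The 2 longest regions ran for 500 kb. That on chromosome 9 from 113000001 to 113500000 lies between Pdcd6ip, which encodes the membrane-remodelling protein ALIX, and Arpp21, and its edges lay at 113.276 and 113.281 Mb after dTAG, against 113.252 and 113.261 Mb in the control, a shift of -22.0 kb (-23.8 and -20.1 kb). That on chromosome 16 from 11550001 to 12050000, at Snx29, Shisa9 and Cpped1, had edges at 11.789 and 11.774 Mb, against 11.724 and 11.815 Mb. Its groups overlapped, and the replicate numbers went opposite ways, with 65.4 and -41.7 kb.

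The heavy chain locus lay in a steep region in these stem cells. Of 9 antigen receptor constant genes, 3 had their midpoint in a steep window. Among them, Ighd and Ighm of the heavy chain are on chromosome 12 in the region from 113350001 to 113550000, which had a slope of 16.8 units per Mb. Its edges lay at 113.451 and 113.465 Mb after dTAG, against 113.444 and 113.441 Mb in the control. Both dTAG edges were further toward the late side, by 15.8 kb in the mean (7.09 and 24.4 kb), with an SE of 12.8 kb and an adjusted p of 0.9987 in limma. With no minimum distance, both dTAG edges lay beyond both control edges on that side in 14.2% of steep regions and 15.1% of all regions fitted. Igkc, the constant region of the kappa light chain on chromosome 6, lay in a region whose edges were at 70.643 and 70.626 Mb after dTAG, against 70.659 and 70.625 Mb in the control, a shift of 7.70 kb with opposite signs within the replicate numbers (16.2 and -0.843 kb).

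The early domains between neighbouring edges kept their length. Of domains with a steep edge at both ends, 554 early ones had a median length of 1065 kb after dTAG and 1063 kb in the control, with a median change of 3.94 kb (3.39 and 5.95 kb within the replicate numbers), and 57.8% were longer after dTAG. The 561 late ones had 1194 and 1203 kb, with a median change of -3.00 kb (-0.652 and -4.87 kb). Both ends of an early domain shifted outward in 189 cases and inward in 113, and in 252 they went opposite ways. The shifts of the 2 ends of a domain were weakly related, with a Pearson r of 0.157 and a Spearman rho of 0.129 over 554 early domains and an r of 0.047 over 561 late domains, given as a description since both ends share the same smoothed profiles.

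The window scores within steep regions gave the same picture. The median difference in the 5403 windows, dTAG minus control, was 0.049 score units, with 0.057 and 0.028 within the replicate numbers. Its median size was 0.245, while single profiles differed by 0.505 within dTAG and 0.489 within the control. The first size is between means of 2 profiles and the others between single profiles, so they are not measured alike. Both dTAG profiles lay at least 0.5 units above both controls in 52 steep windows, 0.962%, and below both in 65, 1.20%, against 0.497% and 1.05% of all autosomal windows. Of the 9504 other windows with a mean score between -2 and 2, 110 were earlier and 279 later by this measure, 4.09% together, against 2.17% of the steep windows. The difference between these shares was not tested, and both kinds of window are neighbours on the same smoothed profiles.

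limma called 0 of the 5403 steep windows and 0 of 48068 autosomal windows by their score, with 62 steep windows, 1.15%, at an unadjusted p under 0.05, against 0.901% of all. With the replicate number as a block it also called 0, with a lowest adjusted p of 0.2438 in the steep windows. When a trended and robust variance was used with that block, a setting added after seeing the data, it called 253 steep windows, 88 earlier and 165 later after dTAG, or 4.68% against 2.73% of all autosomal windows and 7.64% of the other windows with a mean score between -2 and 2. These windows lay in 100 of the regions, 37 with earlier and 63 with later windows. The same variance without the block called 0.

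Genes thinned out across the edge. Protein-coding genes numbered 12.98 for each Mb at 300 to 400 kb on the early side of the mean edge and 8.80 at 100 to 200 kb, then 5.80 in the last 100 kb before the edge and 4.93 in the first 100 kb beyond it, and 3.90 at 300 to 400 kb on the late side. The density therefore fell mainly within the early flank, before the edge. In the steep windows themselves there were 5.64 genes for each Mb, against 8.55 in all autosomal windows, and 1523 of 20554 protein-coding genes, 7.41%, had their midpoint there. No protein-coding midpoint lay in 672 of the 1334 regions.

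Promoters changed in composition over the same distance. The median share of G and C in the 300 bases at the start was 60% at 300 to 400 kb on the early side, 54.7% at 100 to 200 kb, 48.7% in the last 100 kb and 44.7% in the first 100 kb beyond the edge, and the median number of CpG was 20, 12, 5 and 3 at these distances. The Mical2 and Intu promoters printed above, with 24 and 19 CpG, are therefore richer than the median promoter within 100 kb of an edge, and the Clca4b and Olfr290 promoters, with 0 and 3, are not. The YY1 letters were found in 319 of 4488 promoters within 500 kb on the early side, 7.11%, and in 71 of 1896 on the late side, 3.75%, against 6.65% of all 16456. Of the 1237 promoters of genes with a midpoint in a steep window 44 held them, 3.56%. The median G and C content of these promoters was 57.3% on the early side, 44% on the late side, 47.7% for the steep windows and 56.7% over all, and its part in the shares was not tested.

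**Figure D5:**
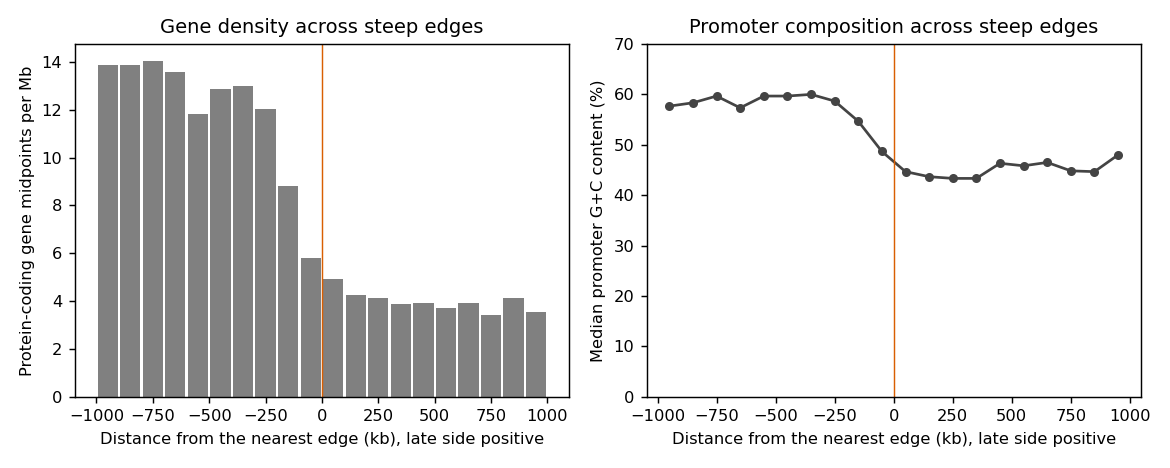
Protein-coding genes per Mb (left) and median promoter G and C content in percent (right), in bins of 100 kb by distance from the mean edge of the nearest steep region, with the late side positive. Gene density fell to 4.93 for each Mb just beyond the edge, against 12.98 at 300 to 400 kb on the early side.

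Genes that cross an edge were long. Of the 1334 edges, 443 lay inside a protein-coding gene, 33.2%, while 41.6% of autosomal positions do. Genes that span an edge had a median length of 257 kb, against 17.5 kb for all protein-coding genes. A long gene covers more positions, so these lengths are not read against each other. Ptprd, a receptor phosphatase gene of 2271 kb, Cntnap2, Lsamp and Macrod2 were the longest, and Ctnna3, Asic2 and Ccser1 held 3 edges each. Transcription ran toward the late side in 164 of 354 pairs of a gene and an edge with a known strand, 46.3%, and in 87 of 202 with a gene of 200 kb or more. Over all 16456 genes with a promoter, placed by their nearest edge, 49.4% ran toward the late side.

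Of the 46 long neuronal and fragile-site genes with a score, a class of genes known for late replication and breakage under replication stress, 21 spanned a steep edge, and 17 of these had their midpoint on its late side. With 1 edge taken for each gene, shifts ranged from -40.7 kb at Dlg2 to 30.4 kb at Magi2, with a median of -0.73 kb, and 10 lay toward the late side, 8 of them in both replicate numbers. Dlg2, which encodes a postsynaptic scaffold protein, holds 2 steep edges, so how much of it lay on the late side is not given here. The edge taken lay at 90.570 and 90.578 Mb on chromosome 7 after dTAG, against 90.609 and 90.621 Mb in the control. At Magi2, another synaptic scaffold gene, it lay at 20.511 and 20.494 Mb on chromosome 5, against 20.539 and 20.526 Mb. The dTAG edges did not overlap the control edges at either gene, in opposite directions. With no minimum distance this held for 23.7% of steep regions. Over all 2029 regions fitted it held for 15.1% toward the late side and 11.2% toward the early side. These 2 genes are the ends of the range above, and limma gave each edge an adjusted p of 0.9987. Auts2, a gene linked to neurodevelopment, and Robo1, an axon guidance receptor gene, were the 2 with a midpoint in a steep window, with shifts of 23.7 kb (0.793 and 46.7 kb) and -11.9 kb (-5.45 and -18.3 kb).

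Olfactory receptor genes gave the largest number of listed genes in steep windows, with 251 of 1103, 22.8%, against 7.41% of all protein-coding genes. They lay in 35 regions, with 67 on chromosome 7, 56 on chromosome 2 and 34 on chromosome 9, and up to 18 in 1 region, so many of them share a region. Edges of these regions had a median shift of 4.02 kb (5.28 and 5.44 kb), and 24 of 35 lay toward the late side. The receptors nearest to an edge were Olfr776 on chromosome 10, with a shift of 26.4 kb (17.4 and 35.4 kb), Olfr653 on chromosome 7, with 20.6 kb (-3.05 and 44.2 kb), and Olfr403 on chromosome 11, with -2.71 kb (-1.54 and -3.88 kb).

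The listed housekeeping and pluripotency genes lay outside the steep windows. None of 73 cytosolic ribosomal protein genes, 25 pluripotency genes, 37 DNA replication genes or 17 genes of chromatin architecture had a midpoint in a steep window, and none spanned a steep edge. Of all protein-coding genes 7.41% had their midpoint there, so lists of 17 to 37 genes are too short to set apart from that share. The difference was not tested. All 25 pluripotency genes scored above 0, with a median of 3.77, which places them in early domains and says nothing of their expression, which was not measured here.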

How the data were processed

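Per the labels' protocols, BrdU-labelled DNA of 40000 cells per fraction was immunoprecipitated and sequenced. The submitters' processing notes name Bowtie2, SAMtools, bedtools and mm10, and no versions are given in the sources used here. A signed score per profile was deposited for 526745 listed positions, 5 kb apart, of which 514245 had a value in all 4 profiles. Per the file headers and name, the authors applied Loess smoothing and quantile normalization. How the score was computed, its log base and its direction are not stated. It was read as high in early DNA, and differences are in score units, although tests had been planned for log2 ratios. For dTAG 1 the title letters and the fraction labels disagree, and its profile ran in the direction of the other 3. The other positions were left out, and in 4 of them some profiles but not all had a value.

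The profiles numbered 1 and those numbered 2 hold mirrored sets of scores, so values within each replicate number stand beside the pooled ones. Nothing in the labels ties a number to 1 day or culture, and it was a block only in an alternative. Windows of 50 kb needed values in at least 0.5 of their 10 positions. Edges were sought within a region and 200 kb on each side. Edges, slopes and scores were tested by lmFit and eBayes of limma 3.58.1 (R 4.3.3) with no term but the group, 2-sided. Benjamini-Hochberg adjustment ran over all regions or autosomal windows fitted, with a threshold of 0.05. Of these fits, only that of edges was run on simulated data first. Slope calls used the difference between the windows 200 kb before and after. Medians were tested by exact permutation with Python 3.11.15, and plots drawn with matplotlib 3.10.9.

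The members, lists and tests were chosen with earlier results of these data known. Regions were named as the 5 with the largest edge shift in each direction among the 316 with all 4 differences of one sign. For slope change, the 3 largest each way were taken among those with all 4 slope differences of one sign. Also named were the 3 steepest rising and falling and the 2 longest. Each was given up to 3 overlapping protein-coding genes, longest first, or the nearest on either side. Of the lists, genes in steep windows were named, or the 3 nearest an edge. Gene positions, strands and promoters came from RefSeq tables on GRCm38.p6, the assembly behind mm10. Of the listed symbols 9 were on no autosome or unmatched.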

Additional observations from a re-analysis of the deposited data

How the results depend on the processing

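limma called 0 steep regions by edge and 0 steep windows by slope under each alternative run, and 0 steep windows by score under each but one. These alternatives were the replicate block, leaving out each profile, all profiles on one distribution, a trended and robust variance, other edge levels and flanks, the steep regions fitted alone and a slope over 200 kb, each where it applies. With the replicate block and a trended and robust variance together, added after seeing the data as were that block with one distribution or a common level, limma called 253 steep windows by score. The replicate block alone called 0 for edges, slopes and scores. It left 108 steep edges, 8.1%, at an unadjusted p under 0.05, against 9.81% of all regions fitted. The labels do not pair the samples.

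The median edge shift of 1.71 kb stayed toward the late side with one distribution (1.57 kb), flanks of 400 kb (3.05 kb), a common level (5.87 kb) or score 0 as the level (5.56 kb, in the 1059 regions where it could be found), and ranged from -6.38 to 9.85 kb with 1 profile left out. The median slope change of -0.026 units per Mb turned to 0.293 within replicate 2, 0.037 without the 100 kb beside the region and 0.0088 with 200 kb, and ranged from -0.985 to 1.05 with 1 profile left out. The 95 regions with edges at least 10 kb apart became 316 at 0 kb, 18 at 20 kb, 624 within replicate 1, 712 within replicate 2, 211 with a common level, 168 with score 0, 171 with flanks of 400 kb and 73 with one distribution, and 306 to 433 with 1 profile left out. The number of steep regions stayed between 1092, at a difference of 3.5 units, and 1576, at 2.5. Of the named regions' recomputed edge shifts 98 kept their direction and 2 turned. These were Dkk1, at 2.41 kb with a common level, and Rnf150, at -35.7 kb with flanks of 400 kb. Shifts within a replicate number or with 1 profile left out could not turn, since the choice required all 4 differences of one sign. Only one distribution and the other levels and flanks could change the direction. The 54 recomputed slope changes all kept theirs. By the same choice, only one distribution and the other lengths beside the region could have turned them. Depth is unknown and could not be weighed.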
